A study of Mus musculus with 4 samples.

Results

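Mitotic regulatory T (Treg) cells were selected on measured transcripts, as the T cells that held at least 8 unique molecular identifiers (UMIs, single captured mRNA molecules) summed over 9 genes of G2 and mitosis, namely Ccnb1, Ccnb2, Cdc20, Cenpf, Ube2c, Tpx2, Birc5, Top2a and Mki67. The rule found 994 such cells among 20109 cells that passed the filters (at least 500 genes, at most 10% of UMIs from mitochondrial genes and at least 1 UMI of Cd3e, Cd3d or Cd3g), out of 24546 deposited barcodes. They are called mitotic cells here, and the remaining 19115 passing cells are called other cells. The 4 libraries were single-cell 5′ RNA-seq of CD4+ Foxp3GFP+ cells, enriched on CD4 microbeads and then sorted by flow cytometry, with 1 library each for liver and for spleen at an age of 7 weeks and at an age of 12 days (neonatal). The 12-day-old mice were Foxp3GFP-Cre Rosa26loxP-Stop-loxP-YFP animals, which express a GFP-Cre fusion from Foxp3 and switch on YFP in cells that have done so. The protocol describes the mice of all libraries as Foxp3GFP on C57BL/6, the allele content of the 7-week-old mice is not further given in the sources used here, and their stage label reads "aged". Each combination of age and tissue was 1 library, and how many mice were pooled in it is not given, so no difference between libraries has a replicate check and none was tested. Intervals are exact 95% intervals and cover counting error only.

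Cells that leave quiescence copy their DNA in S phase, condense and align their chromosomes, and then divide. Cyclin B with the kinase Cdk1 drives entry into mitosis. The ubiquitin ligase APC/C, with its activator Cdc20 and the conjugating enzyme Ube2c, then destroys cyclin B and securin, which keeps sister chromatids from separating. Many of these genes are transcribed only late in the cycle, because the DREAM complex represses them in resting cells through short promoter elements and the activators B-MYB and FOXM1 use the same elements in G2. Treg cells are known to divide in peripheral tissue, with IL-2 as a main growth signal, and effector Treg cells divide more than resting ones.

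Mitotic cells were 53 of 2395 passing cells in the 7-week liver, a share of 2.21% (1.66 to 2.88%), and 58 of 5982 in the 7-week spleen, a share of 0.970% (0.737 to 1.25%). In the neonatal libraries they were 589 of 5612 passing cells in the liver, a share of 10.5% (9.71 to 11.3%), and 294 of 6120 in the spleen, a share of 4.80% (4.28 to 5.37%). The share was therefore higher in liver than in spleen at both ages and lower at 7 weeks than at 12 days in both tissues, and the 4 counting intervals did not overlap. Because deeper cells reach 8 UMIs more easily, the share was taken again after thinning every cell to 2000 UMIs and asking for 4. It was then 1.88% (1.28 to 2.66%) in the 7-week liver, 0.695% (0.482 to 0.970%) in the 7-week spleen, 9.19% (8.39 to 10.1%) in the neonatal liver and 3.78% (3.28 to 4.33%) in the neonatal spleen, with 748, 1090, 859 and 800 shallower cells left out of these libraries in the same order. The libraries fell in the same order as without thinning. Without cells that held 3 or more UMIs of other-lineage lists the shares were 0.908, 0.427, 3.82 and 2.52% in the same order of libraries. With Ighm left out of those lists, chosen after seeing the data, they were 1.98, 0.875, 9.91 and 4.19%. Deeper cells reach this cut more easily too. With Ighm in the lists it left out 69.8, 67.2, 82.0 and 68.7% of mitotic cells and 25.4, 25.3, 46.8 and 39.0% of other cells. Of other cells with totals between the quartiles of the mitotic cells it left out 77.9, 63.5, 82.2 and 76.2%.

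**Figure D1:**
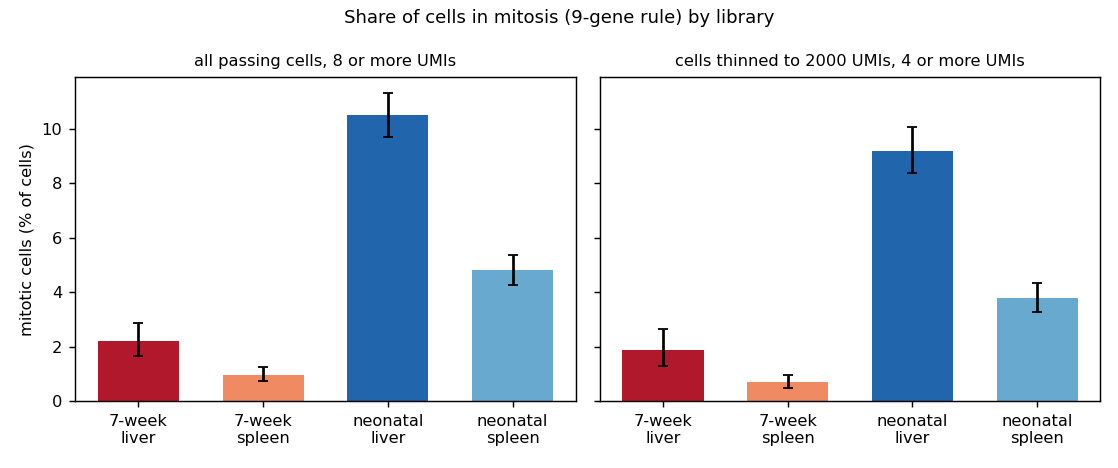
Share of mitotic cells among passing cells in each library (bars, in percent) with exact 95% counting intervals (error bars), for all passing cells on the left and for cells thinned to 2000 UMIs on the right. The neonatal liver stands highest, at 10.5% and 9.19%, and the 7-week spleen lowest, at 0.970% and 0.695%.

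Mitotic cells were deeper than other cells in every library. Their median total was 7301 UMIs in the 7-week liver against 2649 in other cells, 9145.5 against 2932 in the 7-week spleen, 11696 against 4200 in the neonatal liver and 12084 against 4454 in the neonatal spleen. For this reason the comparisons below are also given against other cells whose total lay between the quartiles of the mitotic cells (154, 318, 528 and 614 cells in the same order, called other cells of matched depth). These cells remained shallower than the mitotic cells, with median totals of 6345.5, 7355.5, 9823.5 and 10242 UMIs, so depth was matched in part. Doublets were not removed: Scrublet marked 0, 0, 4.92 and 5.44% of mitotic cells in the same order, against 7.79, 13.5, 11.6 and 14.01% of other cells of matched depth. Both Xist and a Y-linked UMI were found in 1.89, 1.72, 2.38 and 1.36% of mitotic cells, against 2.60, 5.97, 3.98 and 4.72% of other cells of matched depth. Among all other cells the shares were 2.01, 4.90, 4.52 and 4.94% by Scrublet and 0.555, 0.996, 1.06 and 1.06% by Xist and Y. UMIs of 2 or more T cell receptor Trbv genes were found in 15.1, 37.9, 25.8 and 31.3% of mitotic cells. The same was found in 9.61, 12.5, 16.1 and 21.9% of all other cells, and in 32.5, 42.8, 33.9 and 44.5% at matched depth. Against all other cells, few markers of other lineages reached the minimums for a call, 0 to 2 genes of each list in each library. None of those was at least 2-fold higher in mitotic cells. The thymocyte precursor list (4 genes) summed to 0 to 0.253 CPM in mitotic cells, the myeloid list (8 genes) to 17.3 against 7.99 CPM in the 7-week liver, 14.7 against 20.6 CPM in the 7-week spleen, 6.70 against 24.2 CPM in the neonatal liver and 19.5 against 30.6 CPM in the neonatal spleen, and the NK, CD8 and gamma-delta T cell list (8 genes) to 5.52 to 17.3 CPM against 16.6 to 27.2 CPM. Rag1 was at 0 in mitotic cells of all libraries and Cd8a at 0 in 3 of them, and the erythroid list summed to at most 17.9 CPM in mitotic cells against 315 CPM in other cells of the neonatal spleen. In other cells of matched depth of that library it summed to 1220 CPM, with 4 of 4 tested genes lower in mitotic cells. At matched depth in the neonatal liver, 3 of 3 tested dendritic genes (list sums 52.5 against 338 CPM) and 2 of 3 tested B cell genes were lower in mitotic cells. Ighm was present alike in both, at 481 against 483, 392 against 368, 562 against 573 and 325 against 382 CPM. Of the library pairs, the 2 neonatal libraries shared 1 barcode among mitotic cells and no other pair shared any; over all deposited barcodes the pairs shared 23 to 91.

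A Foxp3 UMI was found in 83.0% (70.2 to 91.9%) of mitotic cells of the 7-week liver, in 79.3% (66.6 to 88.8%) of those of the 7-week spleen, in 87.4% (84.5 to 90.0%) of those of the neonatal liver and in 87.1% (82.7 to 90.7%) of those of the neonatal spleen. In other cells of matched depth it was found in 82.5, 86.2, 91.9 and 89.1%, so most mitotic cells carried the transcript that defines Treg cells. No cell type without Foxp3 was set apart in these sorted libraries, so a background share was not measured.

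The 9 genes chose the cells, and their values describe that choice. Levels are given as CPM, the UMIs of a gene per 1000000 UMIs summed over the mitotic cells or over the other cells of a library. Ccnb2, a B-type cyclin, had 442 CPM in mitotic cells against 7.41 CPM in other cells of the 7-week liver and 440.0 against 2.71 CPM in the 7-week spleen. Ccnb2 had 466 against 12.8 CPM in the neonatal liver and 419 against 5.45 CPM in the neonatal spleen. Birc5, which encodes survivin of the chromosomal passenger complex, had 555 CPM in mitotic cells against 6.83 CPM in other cells of the 7-week liver and 539 against 3.07 CPM in the 7-week spleen. Birc5 had 767 against 12.4 CPM in the neonatal liver and 603 against 5.10 CPM in the neonatal spleen. Both genes, which the rule used, were far higher in mitotic than in other cells of every library. Ube2c, the ubiquitin-conjugating enzyme of the APC/C, had 419 CPM in mitotic cells against 19.3 CPM in other cells of the 7-week liver and 451 against 6.75 CPM in the 7-week spleen. Ube2c had 760.5 against 27.4 CPM in the neonatal liver and 593 against 12.7 CPM in the neonatal spleen. All 3 stood highest in mitotic cells of the neonatal liver. Ccnb1, the other B-type cyclin, ranged from 93.8 CPM in mitotic cells of the 7-week liver to 176 CPM in those of the neonatal liver, and stood between 0.972 and 3.08 CPM in other cells. Cdc20, the APC/C activator, ranged from 142 to 206 CPM in mitotic cells and from 2.05 to 3.82 CPM in other cells. Tpx2, which targets Aurora A to the spindle, ranged from 148 to 212 CPM against 0.665 to 3.67 CPM, and Cenpf, a kinetochore protein, from 136 to 256 CPM against 1.38 to 2.998 CPM. Top2a, the topoisomerase that untangles sister DNA, ranged from 229 to 545 CPM against 12.2 to 17.9 CPM, and Mki67, the coat protein of mitotic chromosomes, from 338 to 456 CPM against 10.2 to 22.2 CPM.

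**Figure D2:**
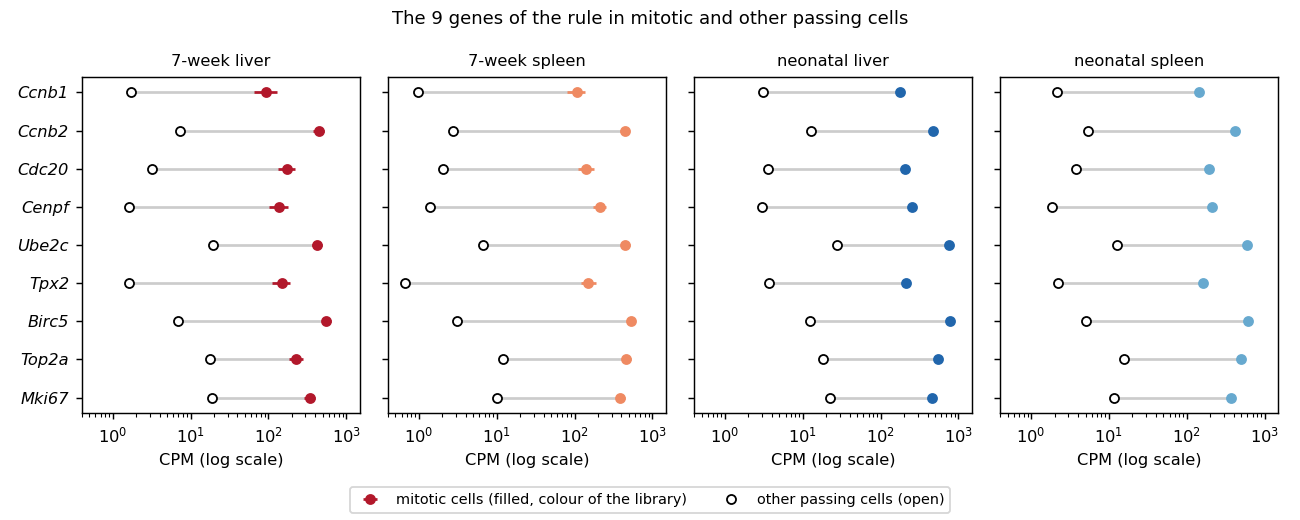
Level of the 9 genes of the rule in CPM (log axis) in mitotic cells (filled points, with exact 95% counting intervals as bars) and in other passing cells (open points), 1 panel per library. All 9 genes stand higher in mitotic cells of all 4 libraries because the rule chose the cells on them.

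Mitotic cells differed in how far they passed the threshold. The median sum over the 9 genes was 14 UMIs in the 7-week liver, 20 in the 7-week spleen, 36 in the neonatal liver and 29 in the neonatal spleen, with highest sums of 59, 128, 212 and 184. At the edge of the rule, 6, 3, 22 and 15 cells held exactly 8 UMIs and 6, 7, 28 and 18 passing cells held 7. No UMI of the 9 genes was seen in 83.8, 90.2, 64.7 and 78.0% of passing cells. All 9 genes were detected together in 3, 8, 214 and 89 mitotic cells, while 8, 5, 21 and 18 mitotic cells had no UMI of Ccnb1, Ccnb2 or Cdc20. Top2a and Mki67 together held as many UMIs as the other 7 genes, or more, in 9, 15, 80 and 61 cells. The rule therefore took in a range of cells, from those with every mitotic gene to some with few.

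Promoters of the rule's genes are shown because the late cell cycle program is known to be read from 2 short elements. One is the CHR element (TTTGAA, or the variant TTTAAA), where the MuvB core of DREAM, B-MYB-MuvB and FOXM1 complexes binds, and the other is the CCAAT box, bound by NF-Y. The 120 bases before the annotated start were taken from RefSeq promoter records of GRCm38.p6, in the direction of transcription, and capitals mark these elements, with ATTGG as CCAAT and TTCAAA as TTTGAA read on the other strand. Promoters were matched for 8 of the 9 genes, all but Tpx2. The 6 printed are Ccnb1 (chr13:100786487-100786606, minus strand), Ccnb2 (chr9:70421555-70421674, minus strand), Cdc20 (chr4:118437344-118437463, minus strand), Cenpf (chr1:189688087-189688206, minus strand), Ube2c (chr2:164769809-164769928, plus strand) and Top2a (chr11:99024190-99024309, minus strand).
Ccnb1: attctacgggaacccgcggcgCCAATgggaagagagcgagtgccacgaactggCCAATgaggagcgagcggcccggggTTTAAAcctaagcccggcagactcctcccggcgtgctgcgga
Ccnb2: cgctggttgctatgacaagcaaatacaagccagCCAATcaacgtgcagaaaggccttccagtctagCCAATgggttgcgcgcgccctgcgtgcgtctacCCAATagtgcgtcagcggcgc
Cdc20: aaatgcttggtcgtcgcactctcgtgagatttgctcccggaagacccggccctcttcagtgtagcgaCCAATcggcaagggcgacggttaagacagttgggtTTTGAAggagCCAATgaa
Cenpf: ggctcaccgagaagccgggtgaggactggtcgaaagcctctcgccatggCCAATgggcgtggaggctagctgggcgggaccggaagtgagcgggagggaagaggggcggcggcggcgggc
Ube2c: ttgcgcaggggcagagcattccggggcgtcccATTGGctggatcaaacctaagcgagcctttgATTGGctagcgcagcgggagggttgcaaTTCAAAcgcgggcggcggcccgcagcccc
Top2a: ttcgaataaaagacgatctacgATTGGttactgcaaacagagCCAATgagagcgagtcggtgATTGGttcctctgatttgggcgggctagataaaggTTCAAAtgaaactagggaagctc

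Positions are counted from the annotated start, negative before it. Ccnb2 held CCAAT boxes at -87, -54 and -21, each 33 bases from the next, and TTTGAA at 5, just past the printed stretch. Ccnb1 held CCAAT at -99 and -67, 32 bases apart, and TTTAAA at -42. Ube2c had ATTGG at -88 and -57, 31 bases apart, followed by TTCAAA at -29, and Cdc20 had TTTGAA at -18 between CCAAT boxes at -53 and -8. TTTGAA on either strand, within 60 bases before to 50 bases after the start, was found in 5 of 8 promoters of the rule's genes (62.5%) and in 40 of 72 promoters of the 4 other mitotic lists described below (55.6%). It was found in 1 of 29 promoters of the S phase list (3.45%), in 0 of 18 promoters of the quiescence list and in 5.50% of all 32851 promoters in the table. Anywhere from 250 bases before to 50 bases after the start, TTTGAA was found in 75, 59.7, 10.3, 0 and 17.9% of the same sets in the same order. TTTAAA in that window was found in 37.5, 13.9, 13.8, 5.56 and 13.2%, close to all promoters in the 4 other mitotic lists. CCAAT on either strand in that window was found in 87.5, 76.4, 65.5, 50 and 37.4%. The Treg identity list, which is not mitotic, held TTTGAA in that window in 4 of 11 promoters (36.4%), above the share of all promoters. Within the narrower window near the start it held TTTGAA in 0 of 11. Among the rule's genes Birc5, matched but not printed, held neither TTTGAA nor CCAAT, and TTTAAA at -220. These matches describe the letters and not binding.

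The lists named below were compiled from known gene functions, and a gene counted as higher or lower when it reached 25 CPM and 30 UMIs in the group where it was higher and differed at least 2-fold. Across all genes that met these minimums, 5.81% were higher in mitotic cells of the 7-week liver, 7.22% in the 7-week spleen, 8.27% in the neonatal liver and 8.06% in the neonatal spleen, and 11.8, 9.29, 3.05 and 2.88% were lower. Against other cells of matched depth 5.54, 6.13, 7.65 and 7.11% were higher and 8.3, 6.4, 2.06 and 1.0% were lower. The rule chose cells on the same contrast, so these shares only set the scale. In the neonatal libraries 368 genes were higher in both and 68 were lower in both, and 142 and 40 genes were higher and lower in all 4.

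Kinases, cyclins and phosphatases of mitotic entry (14 genes) were higher for 5 of 6 tested genes in the 7-week liver, 7 of 7 in the 7-week spleen, and 12 of 12 in each neonatal library, with none lower. Their median log2 ratios were 4.67, 5.39, 4.63 and 4.77, where the median of all genes lay between -0.20 and -0.05. Ccna2, cyclin A2, had 264 CPM in mitotic cells against 1.89 CPM in other cells of the 7-week liver and 221 against 0.716 CPM in the 7-week spleen. Ccna2 had 414 against 5.66 CPM in the neonatal liver and 291 against 2.43 CPM in the neonatal spleen. The ratio was 73.2-fold (95% interval 61.6 to 87.7) in the neonatal liver and 119.7-fold (95% interval 94.0 to 155) in the neonatal spleen. Cyclin A2 mRNA was thus rare outside the mitotic cells. Deep cells weigh most in these sums: with each cell weighing the same, the log2 ratio was 4.49 in the neonatal liver, against 6.19 over summed UMIs. Cdk1, the kinase that cyclins A and B activate, had 79.0 CPM in mitotic cells against 3.05 CPM in other cells of the 7-week liver and 118 against 2.81 CPM in the 7-week spleen. Cdk1 had 239 against 5.32 CPM in the neonatal liver and 186 against 3.33 CPM in the neonatal spleen. Its ratio was smaller than that of Ccna2 in all 4 libraries. Plk1, the polo-like kinase, was 84.4-fold (95% interval 62.7 to 116) higher in the neonatal liver and 86.0-fold (95% interval 64.0 to 118) higher in the neonatal spleen, at 160 and 143 CPM in mitotic cells. Nek2, a centrosomal kinase, reached 55.9 CPM against 0.549 CPM in the neonatal liver. The exception to the size of these ratios was Cdc25b, the phosphatase that activates Cdk1 complexes, with 316 CPM in mitotic cells against 178 CPM in other cells of the 7-week liver and 250.4 against 72.4 CPM in the 7-week spleen. Cdc25b had 350.0 against 113 CPM in the neonatal liver and 233 against 86.4 CPM in the neonatal spleen. It was the tested gene of the list that missed 2-fold in the 7-week liver.

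Spindle, kinesin and cytokinesis genes (27 genes) were higher for 12 of 13 tested genes in the 7-week liver, 16 of 17 in the 7-week spleen, 24 of 25 in the neonatal liver and 22 of 23 in the neonatal spleen. Hmmr, a spindle-associated hyaluronan receptor, had 116 CPM in mitotic cells against 0.291 CPM in other cells of the 7-week liver and 75.5 against 0.153 CPM in the 7-week spleen. Hmmr had 119 against 1.06 CPM in the neonatal liver and 90.5 against 0.625 CPM in the neonatal spleen. It had one of the highest ratios of any gene, 113-fold (95% interval 75.9 to 175) in the neonatal liver and 145-fold (95% interval 90.3 to 247) in the neonatal spleen. With each cell weighing the same, its log2 ratio was 5.12 in the neonatal liver, against 6.82 over summed UMIs. Kif11, the kinesin that pushes spindle poles apart, had 91.3 CPM in mitotic cells against 3.20 CPM in other cells of the 7-week liver and 99.4 against 1.12 CPM in the 7-week spleen. Kif11 had 125 against 2.20 CPM in the neonatal liver and 78.6 against 1.87 CPM in the neonatal spleen. Hmmr and Kif11 were both under 4 CPM in other cells of all libraries. Racgap1, part of the centralspindlin complex of the dividing cell's midzone, had 276 CPM in mitotic cells against 18.6 CPM in other cells of the 7-week liver and 182 against 11.1 CPM in the 7-week spleen. Racgap1 had 262 against 21.1 CPM in the neonatal liver and 211 against 14.2 CPM in the neonatal spleen. The tested gene that missed 2-fold in all 4 libraries was Arl6ip1, an endoplasmic reticulum protein, which had 545 CPM in mitotic cells against 564 CPM in other cells of the 7-week liver and 698 against 546 CPM in the 7-week spleen. Arl6ip1 had 1209 against 676 CPM in the neonatal liver and 940.5 against 551 CPM in the neonatal spleen.

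Kinetochore and centromere genes (23 genes) were higher for all tested genes, 8, 11, 23 and 23 of them, with median log2 ratios of 4.89, 5.46, 5.01 and 5.10. Cenpa, the histone H3 variant of centromeres, had 755 CPM in mitotic cells against 55.8 CPM in other cells of the 7-week liver and 559.7 against 42.8 CPM in the 7-week spleen. Cenpa had 701 against 77.1 CPM in the neonatal liver and 619.6 against 50.4 CPM in the neonatal spleen. Cdca8, borealin of the chromosomal passenger complex, was 32.4-fold (95% interval 28.4 to 37.1) higher in the neonatal liver and 57.8-fold (95% interval 48.8 to 69.0) higher in the neonatal spleen. The smallest ratio of a tested member in the neonatal libraries was that of Hjurp, the chaperone that loads Cenpa, at 5.77-fold and 4.23-fold.

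Checkpoint and APC/C genes (14 genes) were more mixed, with 3 of 6, 5 of 9, 9 of 12 and 6 of 10 tested genes higher and none lower. Bub1b, the checkpoint kinase BubR1, reached 64.0 CPM against 1.65 CPM in the neonatal liver and 49.0 against 1.15 CPM in the neonatal spleen. Subunits of the APC/C stood closer to other cells: Anapc11 had 185 CPM in mitotic cells against 106 CPM in other cells of the 7-week liver and 182 against 131 CPM in the 7-week spleen. Anapc11 had 186 against 118 CPM in the neonatal liver and 215 against 129 CPM in the neonatal spleen. Pttg1, which encodes securin, had 143 CPM in mitotic cells against 128 CPM in other cells of the 7-week liver and 92.0 against 93.4 CPM in the 7-week spleen. Pttg1 had 122 against 113 CPM in the neonatal liver and 84.9 against 90.6 CPM in the neonatal spleen. Its ratio in the neonatal liver was 1.08-fold (95% interval 0.999 to 1.16). Against other cells of matched depth Pttg1 was 1.35-fold in the neonatal liver and 1.07-fold in the neonatal spleen.

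Chromatin proteins of condensing chromosomes (17 genes) were higher for 10 of 12, 14 of 16, 15 of 17 and 15 of 17 tested genes. Hmgb2, an abundant DNA-bending protein of dividing cells, had 4387 CPM in mitotic cells against 469 CPM in other cells of the 7-week liver and 3492 against 263 CPM in the 7-week spleen. Hmgb2 had 3686 against 495 CPM in the neonatal liver and 3067 against 307 CPM in the neonatal spleen. Lmnb1, lamin B1 of the nuclear envelope, was 7.93-fold (95% interval 7.504 to 8.37) higher in the neonatal liver and 7.62-fold (95% interval 7.15 to 8.13) higher in the neonatal spleen. Smc4, a condensin subunit, was an exception, at 387 against 444, 392 against 493, 552 against 342 and 538 against 408 CPM, whereas Ncapg, another condensin subunit, reached 79.3 against 2.41 CPM in the neonatal liver.

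Among tubulins and stathmin (10 genes), 5 of 8, 5 of 8, 7 of 9 and 6 of 9 tested genes were higher, and 1 was lower in the 7-week liver. Tuba1b had 1034 CPM in mitotic cells against 219 CPM in other cells of the 7-week liver and 1721 against 343 CPM in the 7-week spleen. Tuba1b had 2265 against 276 CPM in the neonatal liver and 2665 against 396 CPM in the neonatal spleen. Tuba1b was thus several times higher in mitotic cells of each library. Stmn1, stathmin, which destabilises microtubules, had 762 CPM in mitotic cells against 29.2 CPM in other cells of the 7-week liver and 735 against 15.7 CPM in the 7-week spleen. Stmn1 had 798 against 48.8 CPM in the neonatal liver and 742 against 39.4 CPM in the neonatal spleen. Reads of tubulin genes may be shared between near-identical copies, so values of single tubulins are uncertain. Of the regulators of this program (17 genes), 1 of 3, 2 of 6, 5 of 9 and 5 of 9 tested genes were higher. Foxm1 stayed below the minimum of 25 CPM everywhere, at 9.87, 23.9, 19.7 and 12.9 CPM in mitotic cells against 0.205 to 0.507 CPM in other cells. Mybl2, which encodes B-MYB, reached 40.2 against 1.82 CPM in the neonatal liver and 34.6 against 1.87 CPM in the neonatal spleen. Rbl2, which encodes p130 of the repressing DREAM complex, stood at 55.4 against 69.6 CPM and 38.2 against 56.1 CPM in the same libraries.

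Mitotic cells also held the transcripts of DNA synthesis. Of the S phase list (37 genes) 16 of 17, 24 of 24, 28 of 31 and 31 of 32 tested genes were higher, with median log2 ratios of 2.34, 2.76, 2.19 and 2.41. Summed over the list, mitotic cells had 3032 CPM against 694 CPM in other cells of the 7-week liver, 4175 against 773 in the 7-week spleen, 4235 against 1005 in the neonatal liver and 4339 against 949.6 in the neonatal spleen. Rrm2, the regulated subunit of ribonucleotide reductase, had 254 CPM in mitotic cells against 11.2 CPM in other cells of the 7-week liver and 412 against 6.55 CPM in the 7-week spleen. Rrm2 had 515 against 23.1 CPM in the neonatal liver and 439.7 against 13.6 CPM in the neonatal spleen. The list and Rrm2 were higher in mitotic cells of all 4 libraries. Mcm5, a subunit of the replicative helicase, had 126 CPM in mitotic cells against 16.6 CPM in other cells of the 7-week liver and 166 against 26.5 CPM in the 7-week spleen. Mcm5 had 186 against 38.9 CPM in the neonatal liver and 231 against 41.2 CPM in the neonatal spleen. Against other cells of matched depth the Mcm5 ratio was 2.37-fold in the neonatal liver and 2.85-fold in the neonatal spleen, and the list's median log2 ratio was 1.47 and 1.53. In 16, 24, 242 and 134 mitotic cells the UMIs of the S phase list outnumbered those of the 9 rule genes. The label of mitosis therefore covers cells that still carried S phase transcripts, and S phase, G2 and mitosis were not separated.

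Sorting mitotic cells by their sum over the 9 genes gave a description of how the programs ran together. In the neonatal liver the S phase list stood at 4163, 4746, 4847 and 3537 CPM in cells with 8 to 14, 15 to 29, 30 to 59, and 60 or more UMIs (108, 147, 159 and 175 cells). In the neonatal spleen it stood at 4647, 4821, 4829 and 3504 CPM in the same bins (71, 78, 70 and 75 cells). The S phase level was thus lowest in the cells with the most mitotic UMIs in both neonatal libraries. In the 7-week libraries it was lowest in the first bin, at 2240, 4153 and 2827 CPM through the 3 filled bins of the liver and 3409, 4141, 5049 and 4638 CPM in the spleen. The spindle list, which shares no gene with the rule, climbed through the bins at 1187.5, 1802, 3718 and 6508 CPM in the neonatal liver and at 975, 1718, 2878 and 5355 CPM in the neonatal spleen. The top bin was empty in the 7-week liver and held 4 cells in the 7-week spleen. Bins are cut on the rule's own sum, cells with more UMIs in total reach higher bins more easily, and the part of depth in these patterns was not tested.

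**Figure D3:**
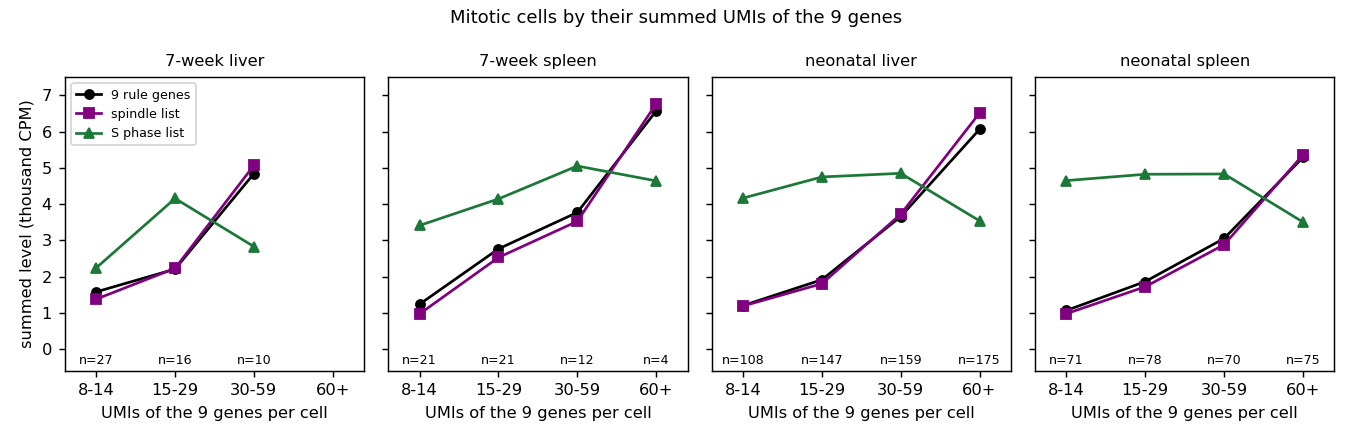
Summed levels (CPM, in units of 1000) of the 9 rule genes, of the spindle list and of the S phase list in mitotic cells binned by their UMIs of the 9 genes, 1 panel per library, with the number of cells under each bin. In both neonatal libraries the spindle list climbs to 6508 and 5355 CPM in the top bin while the S phase list is lowest there, at 3537 and 3504 CPM, and in both 7-week libraries it is lowest in the first bin.

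Many transcripts of resting cells were lower in mitotic cells than in all other cells, and fewer were lower against cells of matched depth. Of the quiescence list (15 genes of antiproliferative factors and cell cycle brakes), 6 of 12 tested genes were lower in the 7-week liver, 6 of 13 in the 7-week spleen, 4 of 12 in the neonatal liver and 4 of 13 in the neonatal spleen, while 0, 0, 2 and 1 were higher. Against other cells of matched depth 3, 2, 0 and 1 of 12 tested genes were lower, beside 8.3, 6.4, 2.06 and 1.0% of all tested genes, and 0, 0, 3 and 2 were higher. The summed list turned round in the neonatal liver, at 1691 CPM in mitotic cells against 2194 CPM in all other cells and 1386 CPM in other cells of matched depth. Btg1, an antiproliferative factor, had 259 CPM in mitotic cells against 1134 CPM in other cells of the 7-week liver and 232 against 868 CPM in the 7-week spleen. Btg1 had 117 against 344 CPM in the neonatal liver and 134 against 386 CPM in the neonatal spleen. It was 2.95-fold (95% interval 2.75 to 3.17) lower in the neonatal liver and 2.88-fold (95% interval 2.64 to 3.14) lower in the neonatal spleen, and 1.78-fold and 1.84-fold lower than in other cells of matched depth. Txnip, an inhibitor of glucose uptake that growth signals shut off, had 237 CPM in mitotic cells against 634 CPM in other cells of the 7-week liver and 155 against 465 CPM in the 7-week spleen. Txnip had 183 against 413 CPM in the neonatal liver and 193 against 513 CPM in the neonatal spleen. Its difference was 1.56-fold, 1.76-fold, 1.35-fold and 1.68-fold at matched depth, under 2-fold in all libraries. Pik3ip1, an inhibitor of PI3K signalling, showed a larger gap, at 2.87 against 21.0 CPM in the neonatal liver and 3.03 against 30.6 CPM in the neonatal spleen, and 3.98-fold and 5.89-fold lower at matched depth. Cdkn2c, which encodes the CDK inhibitor p18, went the other way, at 111 against 22.6 CPM in the neonatal liver and 69.2 against 12.6 CPM in the neonatal spleen, 4.91-fold (95% interval 4.40 to 5.49) and 5.51-fold (95% interval 4.69 to 6.46) higher.

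Genes of resting and recirculating T cells (14 genes) had 6 lower and 0 higher genes in every library, of 12 or 13 tested, with median log2 ratios of -2.23, -1.20, -1.09 and -1.17. The median in the 7-week libraries was -1.35 and -0.64 when genes without a UMI in mitotic cells (3 and 1 genes) were set to the floor of 3 UMIs. Against other cells of matched depth 6, 4, 2 and 0 genes were lower, of 12, 12, 10 and 11 tested, 1 was higher in the neonatal liver and none elsewhere, and the medians were -0.998, -0.72, -0.42 and -0.35. The summed list in the neonatal liver was 1482 CPM in mitotic cells against 1862 CPM in all other cells and 1187 CPM in other cells of matched depth. Il7r, the receptor of the survival cytokine IL-7, had 74.0 CPM in mitotic cells against 320.1 CPM in other cells of the 7-week liver and 64.4 against 232 CPM in the 7-week spleen. Il7r had 52.0 against 170.2 CPM in the neonatal liver and 38.9 against 115 CPM in the neonatal spleen. At matched depth it was 2.58-fold (95% interval 1.75 to 3.92), 1.77-fold (95% interval 1.24 to 2.59), 2.13-fold (95% interval 1.87 to 2.42) and 1.70-fold (95% interval 1.41 to 2.05) lower. The gap of Il7r narrowed at matched depth but did not close. Bcl2, the survival factor, had 12.3 CPM in mitotic cells against 112 CPM in other cells of the 7-week liver and 36.8 against 159 CPM in the 7-week spleen. Bcl2 had 15.6 against 55.6 CPM in the neonatal liver and 55.3 against 146 CPM in the neonatal spleen. Satb1, a chromatin organiser of T cells, was 2.99-fold lower in the neonatal liver and 2.87-fold lower in the neonatal spleen. The list was not uniform: Klf2 and S1pr1 stayed within 2-fold in every library.

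**Figure D4:**
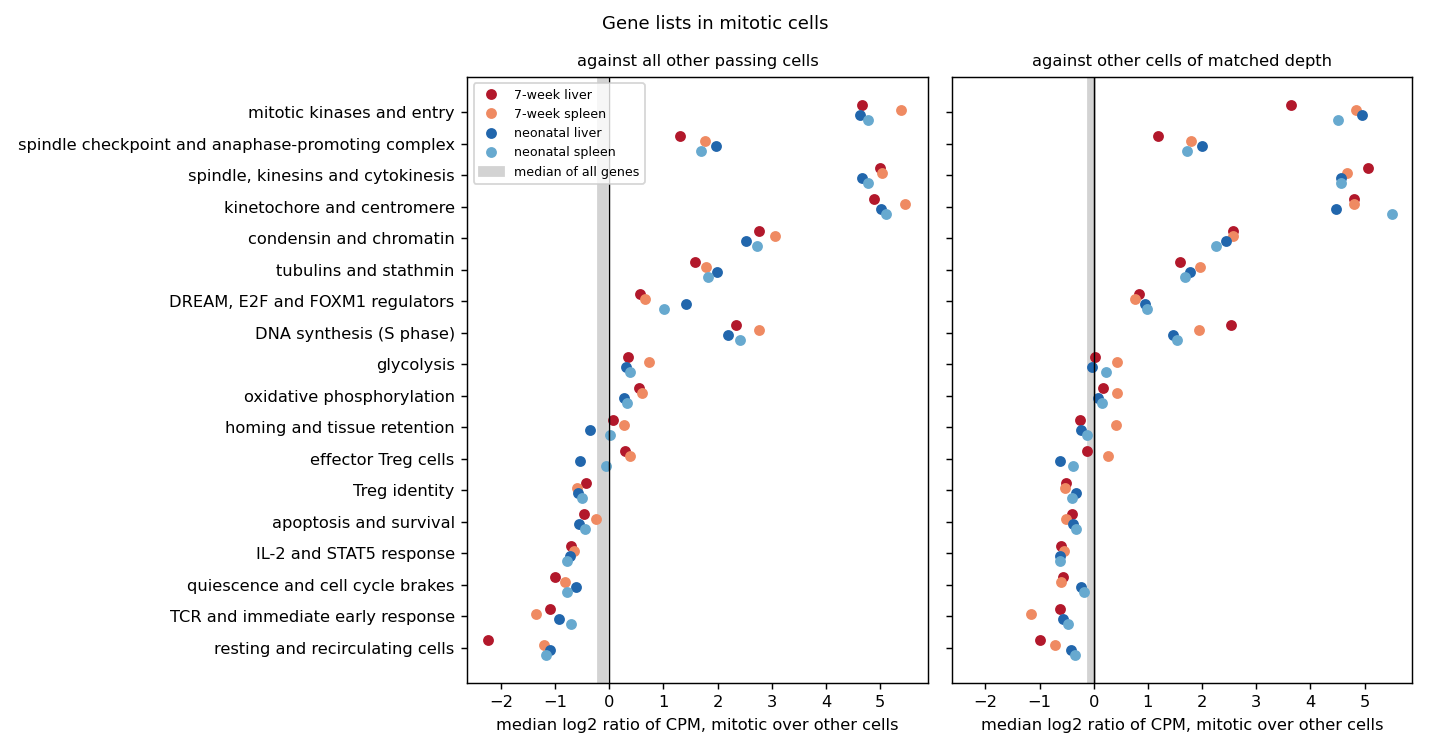
Median log2 ratio of CPM, mitotic cells over other cells, for 18 gene lists in the 4 libraries (coloured points), against all other passing cells on the left and against other cells of matched depth on the right, with the range of the medians of all genes in grey. Mitotic lists stay above 1 in both panels, and lists of quiescence, resting cells and immediate early genes lie nearer to the grey band at matched depth.

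Of the genes outside the lists with the lowest ratios in both neonatal libraries, Slfn5, Kdm5b and Tcp11l2 were also lower there at matched depth. Slfn5, a schlafen family member, had 9.87 CPM in mitotic cells against 74.7 CPM in other cells of the 7-week liver and 5.52 against 70.6 CPM in the 7-week spleen. Slfn5 had 3.55 against 34.2 CPM in the neonatal liver and 4.55 against 49.0 CPM in the neonatal spleen. It was 9.62-fold (95% interval 6.52 to 14.8) lower in the neonatal liver and 10.8-fold (95% interval 6.79 to 18.2) lower in the neonatal spleen, and at matched depth 8.44-fold (95% interval 5.56 to 13.3) and 7.68-fold (95% interval 4.76 to 13.2) lower. Slfn5 mRNA was therefore low in mitotic cells of the neonatal libraries under both comparisons. Kdm5b, a histone H3 lysine 4 demethylase, had 7.402 CPM in mitotic cells against 61.9 CPM in other cells of the 7-week liver and 12.9 against 66.0 CPM in the 7-week spleen. Kdm5b had 9.02 against 58.1 CPM in the neonatal liver and 12.6 against 59.6 CPM in the neonatal spleen. At matched depth it was lower by 8.81-fold (95% interval 2.89 to 43.8), 4.92-fold (95% interval 2.33 to 12.4), 5.33-fold (95% interval 4.05 to 7.09) and 4.07-fold (95% interval 3.02 to 5.60). Tcp11l2 had 37.0 CPM in mitotic cells against 152 CPM in other cells of the 7-week liver and 7.36 against 98.2 CPM in the 7-week spleen. Tcp11l2 had 20.8 against 138 CPM in the neonatal liver and 23.5 against 109.8 CPM in the neonatal spleen, and was 3.52-fold, 9.82-fold, 4.31-fold and 3.45-fold lower at matched depth. Kdm5b and Tcp11l2 were therefore at least 3-fold lower in mitotic cells of all 4 libraries under both comparisons, and Slfn5 in those of the neonatal libraries. Calcoco1, Igflr1 and Ppm1j, named by the same rule, were 3.92-fold, 4.06-fold and 2.85-fold lower in the neonatal liver and 2.85-fold, 3.39-fold and 3.46-fold lower in the neonatal spleen. Slfn5 belongs to a family of similar genes, so its counts are less certain.

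Immediate early and T cell receptor response genes (17 genes) were lower for 8 of 13, 10 of 14, 6 of 13 and 2 of 13 tested genes, and higher for none. At matched depth 2, 9, 2 and 1 were lower. Jun had 91.3 CPM in mitotic cells against 399 CPM in other cells of the 7-week liver and 33.1 against 227 CPM in the 7-week spleen. Jun had 22.6 against 73.9 CPM in the neonatal liver and 27.5 against 61.7 CPM in the neonatal spleen, and was 2.21-fold, 3.72-fold, 1.95-fold and 1.44-fold lower at matched depth. Fos, its dimer partner, was 4.28-fold (95% interval 2.92 to 6.56) lower in the 7-week spleen, but at matched depth it was 1.05-fold and 1.30-fold lower in the neonatal liver and spleen. The gap of Fos in the neonatal libraries was small once depth was matched. Myc, the growth regulator, had 12.3 CPM in mitotic cells against 68.4 CPM in other cells of the 7-week liver and 35.0 against 93.7 CPM in the 7-week spleen. Myc had 31.3 against 82.0 CPM in the neonatal liver and 61.1 against 118 CPM in the neonatal spleen. In contrast to Fos, Myc stayed 3.57-fold (95% interval 3.06 to 4.17) lower in the neonatal liver and 2.18-fold (95% interval 1.89 to 2.52) lower in the neonatal spleen at matched depth. Cish, a target of IL-2 and STAT5 signalling, had 27.1 CPM in mitotic cells against 108 CPM in other cells of the 7-week liver and 42.3 against 135 CPM in the 7-week spleen. Cish had 77.0 against 193 CPM in the neonatal liver and 81.9 against 159 CPM in the neonatal spleen, and was 3.51-fold, 2.18-fold, 2.30-fold and 1.72-fold lower at matched depth.

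Treg identity genes (14 genes) were within 2-fold in most cases: 3 of 14, 5 of 13, 2 of 14 and 2 of 13 tested genes were lower and none was higher. Over all tested genes 11.8, 9.29, 3.05 and 2.88% were lower. At matched depth 2 of 12, 4 of 13, 1 of 13 and 1 of 13 genes of the list were lower. The list then had 11, 10, 14 and 14 genes with a ratio below 1. Its median log2 ratios were -0.51, -0.52, -0.33 and -0.40, where those of all genes were -0.04, 0.02, -0.11 and -0.10. Foxp3 had 336 CPM in mitotic cells against 465 CPM in other cells of the 7-week liver and 252 against 435 CPM in the 7-week spleen. Foxp3 had 307 against 479 CPM in the neonatal liver and 268 against 429.8 CPM in the neonatal spleen. It was 1.56-fold (95% interval 1.49 to 1.64) lower in the neonatal liver and 1.60-fold (95% interval 1.504 to 1.71) lower in the neonatal spleen, and 1.22-fold (95% interval 1.15 to 1.30) and 1.39-fold (95% interval 1.29 to 1.49) lower at matched depth. Foxp3 was thus lower by less than 2-fold in mitotic cells. Il2ra, which encodes CD25 of the IL-2 receptor, had 104 CPM in mitotic cells against 206 CPM in other cells of the 7-week liver and 95.7 against 247 CPM in the 7-week spleen. Il2ra had 90.6 against 144 CPM in the neonatal liver and 139 against 197 CPM in the neonatal spleen. Ikzf2 and Ctla4, the transcription factor Helios and the checkpoint receptor CTLA-4, stayed within 2-fold in all 4 libraries. The genes that were lower in every library were Gpr83, a G protein-coupled receptor typical of Treg cells, and Lrrc32, which encodes GARP, the docking receptor of latent TGF-beta. Lrrc32 had 9.87 CPM in mitotic cells against 64.2 CPM in other cells of the 7-week liver and 12.9 against 84.8 CPM in the 7-week spleen. Lrrc32 had 12.4 against 41.8 CPM in the neonatal liver and 15.9 against 43.3 CPM in the neonatal spleen, and at matched depth it was 2.46-fold (95% interval 1.89 to 3.21) and 2.10-fold (95% interval 1.58 to 2.83) lower in the neonatal liver and spleen. Gpr83 had 4.93 CPM in mitotic cells against 48.2 CPM in other cells of the 7-week liver and 16.6 against 92.4 CPM in the 7-week spleen. Gpr83 had 11.8 against 40.0 CPM in the neonatal liver and 47.5 against 119 CPM in the neonatal spleen, and at matched depth it was 1.17-fold (95% interval 0.8501 to 1.62) lower in the neonatal liver, where its interval included 1, and 1.90-fold (95% interval 1.61 to 2.25) lower in the neonatal spleen.

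Genes of the IL-2 and STAT5 list (12 genes) were higher for 1, 1, 0 and 0 and lower for 4, 4, 4 and 2 of 11, 11, 10 and 10 tested genes. At matched depth 1, 1, 0 and 0 were higher and 4, 3, 5 and 1 were lower, of 10, 11, 10 and 10 tested. Ratios below 1 were then found for 10, 9, 10 and 10 genes of this list and above 1 for 2, 3, 2 and 2. The median log2 ratios of this list were -0.60, -0.55, -0.62 and -0.62. Effector genes (21 genes) showed no common direction against all other cells. Of 17, 16, 20 and 18 tested genes, 3, 5, 0 and 1 were higher and 2, 2, 4 and 1 were lower. At matched depth 2, 4, 0 and 1 were higher and 2, 2, 4 and 3 were lower, of 18, 17, 20 and 18 tested. The list then had 14, 7, 19 and 19 genes with a ratio below 1 and 7, 14, 2 and 2 above. Its median log2 ratios were -0.12, 0.27, -0.63 and -0.39, where those of all genes were -0.04, 0.02, -0.11 and -0.10. Most of the list was thus lower in both neonatal libraries at matched depth. Ccl5, a T cell chemokine, had 111 CPM in mitotic cells against 358 CPM in other cells of the 7-week liver and 20.3 against 108 CPM in the 7-week spleen. Ccl5 had 486 against 1803 CPM in the neonatal liver and 66.2 against 260.0 CPM in the neonatal spleen. It was lower in mitotic cells of every library, 3.71-fold (95% interval 3.58 to 3.84) in the neonatal liver, and 2.56-fold (95% interval 2.46 to 2.67) lower there at matched depth. Gzmb, granzyme B, had 185 CPM in mitotic cells against 61.9 CPM in other cells of the 7-week liver and 62.6 against 20.6 CPM in the 7-week spleen. Gzmb had 492 against 822 CPM in the neonatal liver and 138 against 159.9 CPM in the neonatal spleen. It was 2.99-fold (95% interval 2.31 to 3.83) higher in the 7-week liver and 3.04-fold (95% interval 2.08 to 4.33) higher in the 7-week spleen, but 1.67-fold (95% interval 1.61 to 1.73) lower in the neonatal liver and 1.15-fold (95% interval 1.06 to 1.26) lower in the neonatal spleen. The 7-week values rest on few cells, since 5 cells held 69.3% of the Gzmb UMIs of mitotic cells in the 7-week liver and 94.1% in the 7-week spleen. Lgals1, galectin-1, had 3706 CPM in mitotic cells against 1004 CPM in other cells of the 7-week liver and 2318 against 549.6 CPM in the 7-week spleen. Lgals1 had 2934 against 1649.7 CPM in the neonatal liver and 2094 against 1143 CPM in the neonatal spleen. At matched depth the Lgals1 ratios were 1.75, 2.56, 1.32 and 1.36. Lgals3, galectin-3, had 481 CPM in mitotic cells against 59.7 CPM in other cells of the 7-week liver and 149 against 16 CPM in the 7-week spleen. Lgals3 had 393 against 208 CPM in the neonatal liver and 181 against 57.1 CPM in the neonatal spleen, with ratios at matched depth of 3.64, 7.98, 1.51 and 2.11. Both galectins were therefore higher in mitotic cells of all 4 libraries under both comparisons, with larger ratios in the 7-week libraries. In each neonatal library they were the only 2 genes of the effector list with a ratio above 1 at matched depth.

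At matched depth no tested gene of the glycolysis and oxidative phosphorylation lists differed 2-fold. Of the glycolysis list (15 genes, 14 matched by symbol) 1, 3, 0 and 2 genes were higher and none was lower, and none was higher at matched depth. Over all tested genes 5.81, 7.22, 8.27 and 8.06% were higher. The list's median log2 ratios at matched depth were 0.02, 0.42, -0.02 and 0.22, where those of all genes were -0.04, 0.02, -0.11 and -0.10. Gapdh had 2993 CPM in mitotic cells against 1604 CPM in other cells of the 7-week liver and 2609 against 1180.4 CPM in the 7-week spleen. Gapdh had 1189 against 829 CPM in the neonatal liver and 1132 against 682 CPM in the neonatal spleen. Of 15 genes of oxidative phosphorylation 1 was higher in the 7-week liver and none elsewhere, with median log2 ratios of 0.54, 0.60, 0.26 and 0.33 and of 0.17, 0.44, 0.07 and 0.15 at matched depth. Of the apoptosis list (12 genes) 2, 1, 0 and 0 genes were higher and 4, 4, 2 and 1 were lower, of 11, 11, 10 and 10 tested. Homing receptors (15 genes) were within 2-fold for all tested genes in the 7-week liver and neonatal spleen, and the lower genes elsewhere were Ccr6 in the 7-week spleen and Ccr8, a chemokine receptor of tissue Treg cells, in the neonatal liver (68.8 against 172 CPM).

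Mitotic cells were then compared between libraries, with the same ratio over other cells beside each. Between the neonatal liver and the neonatal spleen 72 of 4904 tested genes were higher in liver (1.47%) and 52 were lower (1.06%), where 2.11 and 0.87% were higher and lower over other cells. No gene of the rule, of the mitotic lists or of the tubulin list differed 2-fold between them. Of the effector list 8 of 18 tested genes were higher in liver and none was lower. Ccl5 had 486 CPM in mitotic cells of the neonatal liver and 66.2 CPM in those of the neonatal spleen, a ratio of 7.34-fold (95% interval 6.48 to 8.36) that was 6.94-fold over other cells. Gzmb had 492 CPM in mitotic cells of the neonatal liver and 138 CPM in those of the neonatal spleen, 3.56-fold (95% interval 3.25 to 3.897), against 5.14-fold over other cells. Cxcr6, the receptor of a chemokine that liver sinusoids display, had 80.4 CPM in mitotic cells of the neonatal liver and 21.2 CPM in those of the neonatal spleen, 3.79-fold (95% interval 3.01 to 4.82), against 7.72-fold over other cells. The tissue difference of these effector genes was thus present among mitotic cells as it was among other cells. For Gzmb, Cxcr6, Ccr2 and Lgals3 the ratio was smaller among mitotic cells when all cells were kept. Ccr2, a homing receptor for inflamed tissue, was 1.91-fold (95% interval 1.54 to 2.39) higher in mitotic cells of the liver against 3.84-fold over other cells, and Lgals3 2.18-fold (95% interval 2.01 to 2.37) against 3.63-fold. Leaving out cells with 3 or more UMIs of other-lineage lists kept 106 mitotic cells of the neonatal liver and 92 of the neonatal spleen. The log2 ratios over mitotic cells were then 5.53 for Ccl5, 3.15 for Gzmb, 4.83 for Cxcr6, 2.24 for Ccr2 and 2.65 for Lgals3. With all cells they were 2.88, 1.83, 1.92, 0.93 and 1.12. Each ratio was thus larger with the filter. The ratios over other cells given here keep all cells, so the smaller ratios among mitotic cells are shown for that setting only.

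Some tissue differences were larger among mitotic cells. Crip2, a LIM domain protein (chr12:113140236-113145506), had 108 CPM in mitotic cells of the neonatal liver and 25 CPM in those of the neonatal spleen, 4.32-fold (95% interval 3.50 to 5.38), whereas other cells of the same libraries had 30.7 and 20.1 CPM, 1.53-fold. Its UMIs were spread over many cells, with 9.75% of them in the top 5 mitotic cells of the neonatal liver. Within the neonatal liver Crip2 was 3.52-fold (95% interval 3.18 to 3.897) higher in mitotic than in other cells and 4.13-fold higher at matched depth, and within the neonatal spleen 1.24-fold (95% interval 0.995 to 1.54). Nudt4, a diphosphoinositol polyphosphate hydrolase, had 50.5 CPM in mitotic cells of the neonatal liver and 11.9 CPM in those of the neonatal spleen, 4.25-fold (95% interval 3.13 to 5.88), against 3.03-fold over other cells. The difference between these ratios was not tested.

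Survival and resting genes were among those lower in mitotic cells of the neonatal liver. Id3, an inhibitor of E proteins, had 112 CPM in mitotic cells of the neonatal liver and 258 CPM in those of the neonatal spleen, 2.32-fold (95% interval 2.11 to 2.54) lower, against 4.65-fold lower over other cells. Bcl2 had 15.6 CPM in mitotic cells of the neonatal liver and 55.3 CPM in those of the neonatal spleen, 3.55-fold (95% interval 2.82 to 4.49) lower against 2.63-fold over other cells, and Gpr83 had 11.8 CPM in mitotic cells of the neonatal liver and 47.5 CPM in those of the neonatal spleen, 4.04-fold (95% interval 3.11 to 5.28) lower against 2.97-fold. The largest gaps were those of Lad1, ladinin-1, 11-fold (95% interval 6.81 to 18.7) lower, and of Eno3, the muscle-type enolase, with 12.7 CPM in mitotic cells of the neonatal liver and 93.2 CPM in those of the neonatal spleen, 7.33-fold (95% interval 5.83 to 9.31) lower. Cd83, an activation marker, had 14.8 CPM in mitotic cells of the neonatal liver and 54.3 CPM in those of the neonatal spleen, 3.68-fold (95% interval 2.91 to 4.68) lower, against 1.73-fold over other cells. Cd74, the invariant chain of MHC class II, was 2.10-fold (95% interval 1.80 to 2.43) lower in mitotic cells of the neonatal liver, and over other cells it was 1.39-fold higher there. The top 5 cells held 39.3 and 56.4% of its UMIs in mitotic cells of the liver and the spleen, and Cd74 is a marker of antigen-presenting cells whose part in this value was not tested. With cells of other-lineage lists left out, Ighm aside, its log2 ratio was -0.32, against -1.07 with all cells.

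**Figure D5:**
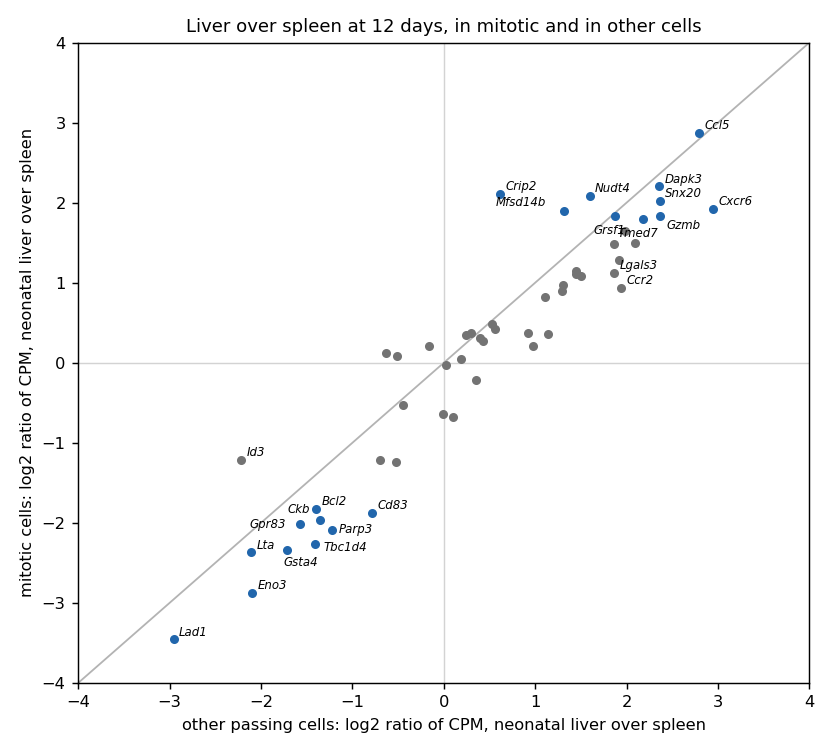
Log2 ratio of CPM, neonatal liver over neonatal spleen, over mitotic cells (vertical axis) and over other passing cells (horizontal axis), for the genes named by rank in this comparison (blue) and the tested genes of the effector, homing and resting lists (grey), with the line of equal ratios. Most genes lie near the line, and Crip2 lies above it, at a 4.32-fold ratio over mitotic cells and 1.53-fold over other cells.

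Between the 7-week liver and the 7-week spleen, with 53 and 58 mitotic cells, 61 of 2639 tested genes were higher in liver (2.31%) and 95 were lower (3.6%), against 1.33 and 0.458% over other cells. Klrg1, a marker of terminal effector cells, had 219.6 CPM in mitotic cells of the 7-week liver and 44.2 CPM in those of the 7-week spleen, and Ccr2 had 148 CPM in mitotic cells of the 7-week liver and 23.9 CPM in those of the 7-week spleen. The ratio of Ccr2 was 6.19-fold (95% interval 3.36 to 12.3), against 3.97-fold over other cells. These values rest on few cells, since 5 mitotic cells of the spleen held all of the Klrg1 UMIs there and 84.6% of those of Ccr2. Pdcd1, the inhibitory receptor PD-1, had 29.6 CPM in mitotic cells of the 7-week liver and 155 CPM in those of the 7-week spleen, 5.22-fold (95% interval 2.84 to 10.5) lower, against 3.24-fold over other cells, and Id3 had 136 CPM in mitotic cells of the 7-week liver and 329.5 CPM in those of the 7-week spleen, 2.43-fold (95% interval 1.79 to 3.35) lower. The log2 ratio of Id3 was -1.28, and -0.28 with mitotic cells chosen on thinned counts, which ends its call. Of the S phase list 3 of 24 tested genes were lower in liver and none was higher, and 5 of 37 measured genes had a ratio above 1, with a median log2 ratio of -0.52 over mitotic cells and -0.14 over other cells. Hist1h1b, a linker histone made in S phase, had 101 CPM in mitotic cells of the 7-week liver and 276 CPM in those of the 7-week spleen, 2.73-fold (95% interval 1.92 to 3.96) lower, and histone genes with near-identical copies are uncertain.

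Comparing ages within the liver, 99 of 3702 tested genes were higher in mitotic cells at 7 weeks (2.67%) and 309 were lower (8.35%), against 4.33 and 3.21% over other cells. Ifi27l2a, an interferon-induced gene, had 5611 CPM in mitotic cells of the 7-week liver and 1510.1 CPM in those of the neonatal liver, 3.72-fold (95% interval 3.55 to 3.89), against 2.07-fold over other cells. Bst2, tetherin, also interferon-induced, was 3.85-fold (95% interval 3.02 to 4.86) higher against 2.61-fold. Both interferon-induced genes were thus higher at 7 weeks among mitotic and among other cells. Cyp51, an enzyme of cholesterol synthesis, had 86.4 CPM in mitotic cells of the 7-week liver and 18.5 CPM in those of the neonatal liver, 4.68-fold (95% interval 3.13 to 6.83), against 1.30-fold over other cells. Hmgcs1 was 4.64-fold (95% interval 3.27 to 6.47) higher against 1.47-fold, and Fdps 3.52-fold (95% interval 2.72 to 4.50) higher against 1.47-fold. The top 5 of the 53 cells held 45.7, 68.9 and 51.9% of the UMIs of these 3 genes, in the same order. Whether these ratios differ from those over other cells was not tested. Ccl5 was 4.38-fold (95% interval 3.27 to 6.01) lower and Gzmb 2.66-fold (95% interval 2.12 to 3.39) lower at 7 weeks, against 5.03-fold and 13.3-fold lower over other cells. The log2 ratio of Ccl5 was -2.13, and -1.27 on thinned counts. That of Gzmb was -1.41, and -0.83 without cells of other-lineage lists, which left 16 and 106 mitotic cells at 7 weeks and 12 days. The summed 9 rule genes were at 2534 CPM in mitotic cells of the 7-week liver and 3844.5 CPM in those of the neonatal liver, and mitotic genes tested were lower at 7 weeks for 1 of 9 rule genes, 4 of 10 entry genes, 5 of 24 spindle genes and 7 of 22 kinetochore genes. The rule chose these cells on the 9 genes, and their median totals were 7301 and 11696 UMIs. The part of the rule and of depth in these values was not tested.

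Comparing ages within the spleen, 71 of 3929 tested genes were higher in mitotic cells at 7 weeks (1.81%) and 151 were lower (3.84%), against 2.33 and 1.41% over other cells. Rac1, a GTPase of the cytoskeleton, had 466 CPM in mitotic cells of the 7-week spleen and 93.7 CPM in those of the neonatal spleen, 4.97-fold (95% interval 4.22 to 5.85), against 4.23-fold over other cells. Ly6a, the Sca-1 antigen, had 735 CPM in mitotic cells of the 7-week spleen and 174 CPM in those of the neonatal spleen, 4.23-fold (95% interval 3.73 to 4.79), against 2.62-fold, and its family of similar genes makes the count less certain. Rln3, relaxin-3, had 88.4 CPM in mitotic cells of the 7-week spleen and 471 CPM in those of the neonatal spleen, 5.33-fold (95% interval 4.003 to 7.26) lower at 7 weeks, against 4.60-fold lower over other cells. Igf2bp3, an RNA-binding protein of the fetal program, had 2 UMIs in mitotic cells of the 7-week liver and 3 in those of the 7-week spleen. Its level was 4.93 against 41.2 CPM in the liver, a ratio of 0.120 (95% interval 0.0145 to 0.437), and 5.52 against 50.5 CPM in the spleen, a ratio of 0.109 (95% interval 0.0223 to 0.324), 7 weeks over 12 days. Igf2bp3 was lower at 7 weeks in other cells too, by 15.7-fold in the liver and 13.2-fold in the spleen. A Xist UMI was found in 30.2 and 32.8% of mitotic cells of the 7-week liver and spleen and in 66.6 and 72.8% of those of the neonatal liver and spleen, so the mix of sexes differed between ages, and age, sex mix and library cannot be told apart.

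Membership was finally set against single genes in cells thinned to 2000 UMIs. In the 7-week liver 3.17% (2.16 to 4.47%) of cells with a Lgals1 UMI were mitotic, against 0 of 669 cells without one, which allows a share of up to 0.448% (3 cells of 669), or 0.550% by the exact 95% interval. In the neonatal liver it was 10.7% with and 1.61% without Lgals1, and in the neonatal spleen 4.63% and 1.60%. Cells with a Bcl2 UMI were mitotic in 3.78% in the neonatal liver and 1.88% in the neonatal spleen, against 9.76 and 4.35% of cells without one. Cells with a Ccl5 UMI were mitotic in 4.88% (3.92 to 5.99%) in the neonatal liver, against 11.7% (10.6 to 12.9%) without one. With a Gzmb UMI the share was 5.05% (1.66 to 11.4%) in the 7-week liver and 3.80% (0.790 to 10.7%) in the 7-week spleen, against 1.68% (1.10 to 2.45%) and 0.644% (0.438 to 0.913%) without one. In the neonatal liver it was 7.18% (5.93 to 8.59%) with and 10.1% (9.12 to 11.2%) without a Gzmb UMI, while in the neonatal spleen it was 5.40% (3.45 to 7.99%) with and 3.64% (3.13 to 4.20%) without one. A UMI that is absent after thinning does not show that the gene is off.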

How the data were processed

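Each of the 4 libraries was 1 deposited matrix of whole-number UMI counts per gene and cell barcode, written by Cell Ranger 4.0.0 per the file headers. The submitters' processing notes name the genome build mm10 and Seurat 4.0.2. Which gene annotation was counted is not given in the sources that were used. Counts were used as the authors deposited them. Cells were kept with at least 500 genes, at most 10% mitochondrial UMIs and at least 1 Cd3 UMI. Doublets were kept, since the automatic Scrublet threshold marked 2 cells, and 899 cells were marked at the expected rate for an alternative. Libraries were grouped by the age and tissue in the labels, with 1 library per group.

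UMIs were summed over mitotic and over other cells of each library and divided by their total to give CPM. Ratios have exact 95% conditional binomial intervals, and shares Clopper-Pearson intervals. No test was made, because groups had 1 library each, and a gene was called at 25 CPM, 30 UMIs and a 2-fold ratio. List medians used genes with at least 10 UMIs, with a pool at 0 taken as 0.5 UMI. The scripts were tested on simulated data. Between libraries, the total of UMIs was 405309, 543195, 7314080 and 3957656 over mitotic cells of the 7-week liver, 7-week spleen, neonatal liver and neonatal spleen, so 7-week values are the least precise. Promoters came from the RefSeq table (GRCm38.p6), and gene positions from GENCODE vM21, in which 32235 of 32285 features were found.

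The members, the 30 gene lists and the comparisons were chosen with earlier results of these data known. Named genes were the 9 rule genes, the 10 highest and 10 lowest in both neonatal libraries, the 10 highest and 10 lowest in each of the 4 comparisons between libraries (at least 50 UMIs), and up to 4 abundant members of each list with its highest and lowest ratio. Ccr6, Cdk1, Cish, Ctla4, Foxm1, Foxp3, Il2ra, Kif11, Lmnb1, Mcm5, Mybl2, Myc and Xist were added after their values were seen. Some genes that the rule names are not reported here. Alternatives changed the threshold, the depth, the scaling (TMM, edgeR 4.0.16), the CPM floor and the cells kept. Python 3.11.15, numpy 2.4.6, pandas 2.3.3, scipy 1.17.1, scanpy 1.11.5, matplotlib 3.10.9 and R 4.3.3 were used.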

Additional observations from a re-analysis of the deposited data

Results flagged for a closer look

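Among the named genes tested in all 4 libraries, Gzmb alone was at least 2-fold different between mitotic and other cells in both libraries of one age and on the other side of 1 in both libraries of the other age, and no gene did so between tissues. The log2 ratio was 1.58 in the 7-week liver and 1.61 in the 7-week spleen, against -0.74 in the neonatal liver and -0.21 in the neonatal spleen. At matched depth the ratios were 2.04-fold, 2.37-fold, 0.583-fold and 0.702-fold in the same order. The share of cells with a Gzmb UMI after thinning to 2000 UMIs went the other way in the neonatal spleen, at 11.4% of mitotic cells against 7.87% of other cells. It was 24.9 against 32.7% in the neonatal liver, 16.1 against 5.82% in the 7-week liver and 8.82 against 1.56% in the 7-week spleen. The difference between ages was not tested, since each age and tissue was 1 library. The top 5 mitotic cells held 69.3 and 94.1% of the Gzmb UMIs in the 7-week liver and spleen, against 15 and 39.1% in the neonatal liver and spleen.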

How the results depend on the processing

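Over the alternatives, 17 of 40 shares and 108 of 152 counts of genes stayed close to the values reported (shares within their counting interval, counts within 1.5 times), and so did 11398 of 13379 values of single genes. The share of mitotic cells in the 7-week liver, 7-week spleen, neonatal liver and neonatal spleen kept its order in each alternative. It was 1.38, 9.35 and 4.07% at 12 or more UMIs in the 7-week liver, neonatal liver and neonatal spleen, and 1.30, 12.1 and 5.70% at 5 or more UMIs in the 7-week spleen, neonatal liver and neonatal spleen. It was 1.46, 0.619 and 3.89% by 0.2% of a cell's UMIs in the 7-week liver, 7-week spleen and neonatal spleen, and 1.59, 9.44 and 4.04% over 7 genes without Top2a and Mki67 in the 7-week liver, neonatal liver and neonatal spleen. Among cells with a Foxp3 UMI it was 3.05, 12.4 and 5.98% in the same libraries, and in thinned cells 0.695, 9.19 and 3.78% in the 7-week spleen, neonatal liver and neonatal spleen. Without cells that held 3 or more UMIs of other lineages it was 0.908, 0.427, 3.82 and 2.52%, and with Ighm set aside, an alternative chosen after seeing the data, 4.19% in the neonatal spleen.

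Without such cells, 16, 19, 106 and 92 mitotic cells were left in the 7-week liver, 7-week spleen, neonatal liver and neonatal spleen. Mitotic cells then had 91 and 119 higher genes in the 7-week libraries and 815, 619 and 297 lower genes in the 7-week liver, 7-week spleen and neonatal liver. Between libraries, higher and lower genes were then 24 and 20 for 7-week liver over spleen, 173 and 205 for neonatal liver over spleen, 36 and 627 for 7-week over neonatal liver, and 31 and 415 for 7-week over neonatal spleen. With no CPM floor, lower genes in mitotic cells were 1667, 1897, 959 and 1051, and 687 were higher in the neonatal liver; neonatal liver over spleen gave 269 and 134, and 7-week over neonatal gave 1159 lower genes in liver and 522 in spleen. With a floor of 100 CPM, lower genes were 89, 78, 45 and 35, and higher genes 199, 182 and 165 in the 7-week spleen, neonatal liver and neonatal spleen; between libraries they were 39 and 25 for the 7-week tissues, 27 and 9 for the neonatal tissues, 78 lower for the livers, and 33 and 20 for the spleens. At matched depth, 301, 264, 104 and 50 genes were lower. With members chosen on thinned cells, 32 genes were higher in 7-week liver over spleen, 52 in 7-week over neonatal liver, and 276 lower in 7-week over neonatal spleen. TMM scaling gave 231 lower genes in 7-week over neonatal spleen.

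Ccl5 and Gzmb reversed between 7-week and neonatal mitotic cells of the spleen when cells with other-lineage UMIs were left out. Their log2 ratios were then 1.29 and 0.66, against -1.71 and -1.15 with all cells. The filtered values rest on 19 mitotic cells of the 7-week spleen and 92 of the neonatal spleen, and the cause was not tested. TMM scaling shifted the median of all genes by -0.14 and -0.12 (log2) in the age comparisons of liver and spleen. No paired analysis was possible because each group holds 1 library. The 7-week values rest on 53 and 58 mitotic cells, which limits their precision.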
